A study of Mus musculus with 6 samples.

Results

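The miR-10, miR-99/100 and miR-125 families were followed through 8 mature miRNAs, chosen by name and read from a deposited table of 1831 mouse miRNAs: mmu-miR-10a-5p, mmu-miR-10b-5p, mmu-miR-99a-5p, mmu-miR-99b-5p, mmu-miR-100-5p, mmu-miR-125a-5p, mmu-miR-125a-3p and mmu-miR-125b-5p, from here on without the prefix for mouse. All 8 of 8 were in the table. Small RNA from small intestinal mucosa was measured on 1 single-colour (Cy3) array per mouse, in 3 wildtype littermates and 3 Cdr1as-/- mice. Cdr1as is a circular RNA known for its many binding sites for miR-7, and the Cdr1as-/- strain carried a CRISPR/Cas9 deletion of the whole locus, made in embryos on the C57BL/6J background and so not limited to the intestine. The labels name no treatment of either group, the study's methods describe fasting of mice ahead of experiments, and age and sex of the mice were not given in the sources used here. The arrays were used by the study to ask how loss of Cdr1as changes miRNA levels in the mucosa. Cdr1as itself was not measured on these arrays, so the genotype labels could not be checked against it.

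A miRNA guides the silencing complex to messenger RNAs mainly through its seed, the bases near its 5′ end. The miR-10 genes lie inside the Hox clusters, whose transcription factors set position along the body axis, and their miRNAs are known to be expressed in regions along that axis. The miR-99/100 and miR-125 genes lie side by side, with a let-7 gene between them, and the miRNAs are known for roles in growth control, with miR-125b-5p prominent in stromal and muscle cells and miR-99/100 known to act on mTOR. The 5p and 3p strands of a miRNA come from the opposite arms of 1 hairpin.

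The members form 3 seed families and 1 further strand, and their sequences are shown because close paralogs, some a single base apart, are compared below. The capitals mark the seed, bases 2 to 8 from the 5′ end. Sequences and positions are those of RefSeq for GRCm38.p6, all on the plus strand, and all 8 were the same as the sequences deposited with the array table.
mmu-miR-10a-5p, chr11:96317186-96317208: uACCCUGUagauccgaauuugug
mmu-miR-10b-5p, chr2:74726074-74726096: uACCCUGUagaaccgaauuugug
mmu-miR-99a-5p, chr16:77598940-77598961: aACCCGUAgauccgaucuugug
mmu-miR-99b-5p, chr17:17830194-17830215: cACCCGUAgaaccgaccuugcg
mmu-miR-100-5p, chr9:41531437-41531458: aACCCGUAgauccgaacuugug
mmu-miR-125a-5p, chr17:17830817-17830840: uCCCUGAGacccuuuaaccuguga
mmu-miR-125b-5p, chr9:41581940-41581961 and chr16:77646279-77646300: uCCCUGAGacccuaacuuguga
mmu-miR-125a-3p, chr17:17830855-17830876: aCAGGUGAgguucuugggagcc

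Counting from 1 at the 5′ end, miR-10a-5p and miR-10b-5p differed by the single substitution U12A, and miR-99a-5p and miR-100-5p by U16A. From miR-99a-5p to miR-99b-5p there were 4 substitutions, A1C, U11A, U16C and U21C. miR-125a-5p and miR-125b-5p shared their first 13 bases. Although the miR-10 and miR-99/100 seeds differ, miR-10a-5p and miR-100-5p shared a run of 11 bases, guagauccgaa, displaced by 1 position. The seed of the miR-10 pair was found in 2 miRNAs of the table and that of the miR-99/100 group in 3, in each case only members. The miR-125 seed was found in 5, the other 3 being miR-351-5p, miR-6367 and miR-6394. How far the probes separated paralogs that differ by 1 base was not tested, and the values of miR-10a-5p against miR-10b-5p, and of miR-99a-5p against miR-100-5p, are uncertain to that extent.

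In the RefSeq annotation, Mir10a overlapped Hoxb3, between Hoxb5 and Hoxb4, and Mir10b overlapped Hoxd3 and Hoxd4. Mir99b, Mirlet7e and Mir125a lay within Spaca6, with 563 bases between the mature strands of Mir99b and Mir125a. Mir99a, Mirlet7c-1 and Mir125b-2 lay between Usp25 and Cxadr, with 47281 bases from Mir99a to Mir125b-2. Mir100, Mirlet7a-2 and Mir125b-1 lay within the long noncoding RNA gene Mir100hg, with 50447 bases from Mir100 to Mir125b-1. Since the mature miR-125b-5p is the same from both of its genes, its level cannot be assigned to either.

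All levels below are the deposited normalized log2 intensities, 1 value per miRNA and mouse, so that a difference of 1 is a doubling. They are compared between mice and not between miRNAs, because probes differ in brightness. 1 array stood apart before any genotype was compared. The array of littermate 3 had a median scanner signal over miRNA probes of 236, against 29.2 in Cdr1as-/- mouse 1 and 8.75 to 14.1 in the other 4, and its Spearman correlation with littermate 1 across miRNAs was 0.71, against 0.89 to 0.97 for the others. The comparisons of genotypes are therefore given with all 6 arrays and without littermate 3. Without littermate 3, Cdr1as-/- mouse 1 differed most from littermates 1 and 2, with an SD of the differences across miRNAs of 0.79, against 0.46 and 0.53 in Cdr1as-/- mice 2 and 3.

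No member passed the test between genotypes. With all 6 arrays, 0 of 8 had an adjusted p under 0.05 in the limma fit, adjusted after Benjamini-Hochberg for the whole table of 1831, and the background was 0% of the table (0 miRNAs at an adjusted p, 6 or 0.328% at an unadjusted p under 0.05, and 0 adjusted and 21 unadjusted by the methods' t-test). None of the 8 members was among those 6, of which 2 (0.109%) were higher and 4 (0.218%) lower in Cdr1as-/- mice. The groups overlapped for all 8 members, where 0.437% of all miRNAs had every Cdr1as-/- mouse above the littermates and 2.73% had every one below. The adjusted p was 1.0 for each member after rounding. The median log2 fold change was 0.13 over the members, 6 of them higher and 2 lower, beside −0.07 over all miRNAs, of which 39.1% were higher. Without littermate 3, 0 of 8 members and again 0% of all miRNAs had an adjusted p under 0.05, and the members' adjusted p-values lay between 0.36 and 0.91. At an unadjusted p under 0.05 there was then 1 member, miR-125a-3p, where 13.2% of all miRNAs reached that level, 2.73% upward and 10.5% downward. In this comparison 5 of the 8 members were higher, beside 57.1% of all miRNAs, and the median was 0.28, beside 0.09. The littermates and Cdr1as-/- mouse 1 were on 1 slide and Cdr1as-/- mice 2 and 3 on another, so that with the slide as a block, or within the first slide, the difference rests on Cdr1as-/- mouse 1 alone. It was then −0.031 for miR-10a-5p, 0.23 for miR-10b-5p, 0.19 for miR-99a-5p, 0.35 for miR-99b-5p, 0.30 for miR-100-5p, 0.087 for miR-125a-5p, 0.055 for miR-125a-3p and 1.17 for miR-125b-5p, with adjusted p-values of 1.0 by limma.

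**Figure D1:**
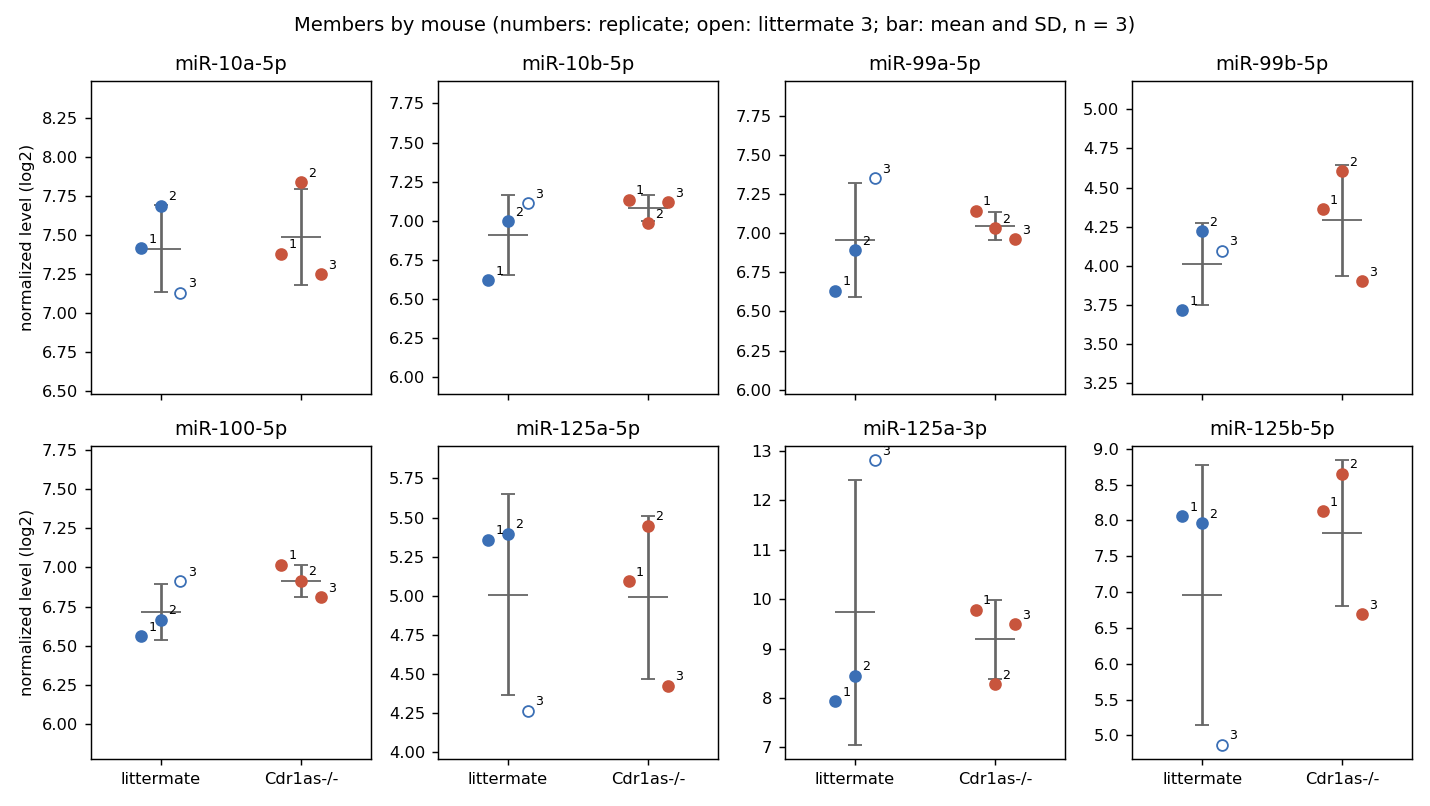
Normalized log2 level of each of the 8 members in every mouse, littermates in blue and Cdr1as-/- mice in red, with the mean and SD of each group (n = 3); panels have their own vertical scales, each spanning at least 2 log2 units. The groups overlap in all 8 panels, and the open symbol, littermate 3, is the highest point for miR-125a-3p at 12.81 and the lowest for miR-125b-5p at 4.87.

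The miR-10 paralogs of the Hox clusters were nearly level across the 6 mice. miR-10a-5p stood at 7.41, 7.69 and 7.13 in littermates 1 to 3 and at 7.38, 7.84 and 7.25 in Cdr1as-/- mice 1 to 3. The groups overlapped, and the highest and the lowest mice were Cdr1as-/- mouse 2 and littermate 3. Its log2 fold change was 0.08 (SE 0.28, 95% interval −0.59 to 0.75, n = 3 per group, limma adjusted p = 1.0), and −0.06 (95% interval −0.67 to 0.54, limma adjusted p = 0.91) without littermate 3.

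miR-10b-5p stood at 6.62, 7.0 and 7.11 in the littermates and at 7.14, 6.98 and 7.12 in the Cdr1as-/- mice. Littermate 1 was the lowest, and the other 5 mice lay close together, from 6.98 to 7.14. Its log2 fold change was 0.17 (SE 0.24, 95% interval −0.40 to 0.74), and 0.27 (95% interval −0.27 to 0.82, limma adjusted p = 0.51) without littermate 3. The intervals of both miR-10 members excluded a doubling or a halving of the level, 1 log2 unit, with and without littermate 3.

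The miR-99/100 members, which share 1 seed and come from 3 gene clusters, were all slightly higher on average in Cdr1as-/- mice, with 95% intervals that covered 0. miR-99a-5p stood at 6.63, 6.89 and 7.35 in the littermates and at 7.14, 7.03 and 6.96 in the Cdr1as-/- mice. The littermates spanned the Cdr1as-/- mice on both sides. The log2 fold change was 0.09 (SE 0.26, 95% interval −0.56 to 0.73), and 0.28 (95% interval −0.25 to 0.82, limma adjusted p = 0.49) without littermate 3.

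miR-100-5p, 1 base away from miR-99a-5p, stood at 6.56, 6.67 and 6.91 in the littermates and at 7.02, 6.92 and 6.81 in the Cdr1as-/- mice. Littermate 3 lay among the Cdr1as-/- mice, and littermates 1 and 2 lay below them. Between genotypes, its log2 fold change was 0.20 (SE 0.22, 95% interval −0.33 to 0.74), and 0.30 (95% interval −0.22 to 0.82, limma adjusted p = 0.47) without littermate 3. Without littermate 3, the 3 Cdr1as-/- mice lay above littermates 1 and 2 for 2 of the 8 members, miR-99a-5p and miR-100-5p, which is near the 20.3% of all miRNAs that did the same; no member had all Cdr1as-/- mice below, where 19.9% of all miRNAs did.

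miR-99b-5p was the dimmest member on the scanner. It stood at 3.71, 4.22 and 4.10 in the littermates and at 4.36, 4.61 and 3.90 in the Cdr1as-/- mice, and the groups overlapped. On the arrays of littermate 1 and of Cdr1as-/- mouse 2, only 2 of its 5 probes were well above background, and in littermate 1 the other 3 were at the lowest value of the normalized table for that array. The log2 fold change was 0.28 (SE 0.29, 95% interval −0.42 to 0.98), and 0.32 (95% interval −0.34 to 0.98, limma adjusted p = 0.52) without littermate 3. For miR-99b-5p, miR-100-5p and miR-10b-5p the direction was upward under all 19 alternative settings. For miR-99a-5p it was upward under all but 2, normexp background correction and leaving out littermate 1. Some of the 19 settings, named below with the processing, could not change a log2 fold change, so their direction was fixed in advance and adds nothing. The sizes depended on single mice, since miR-10b-5p came to 0.026 and miR-100-5p to 0.13 without littermate 1, and miR-99b-5p to 0.13 without littermate 1, to 0.12 without Cdr1as-/- mouse 2 and to 0.47 without Cdr1as-/- mouse 3.

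**Figure D2:**
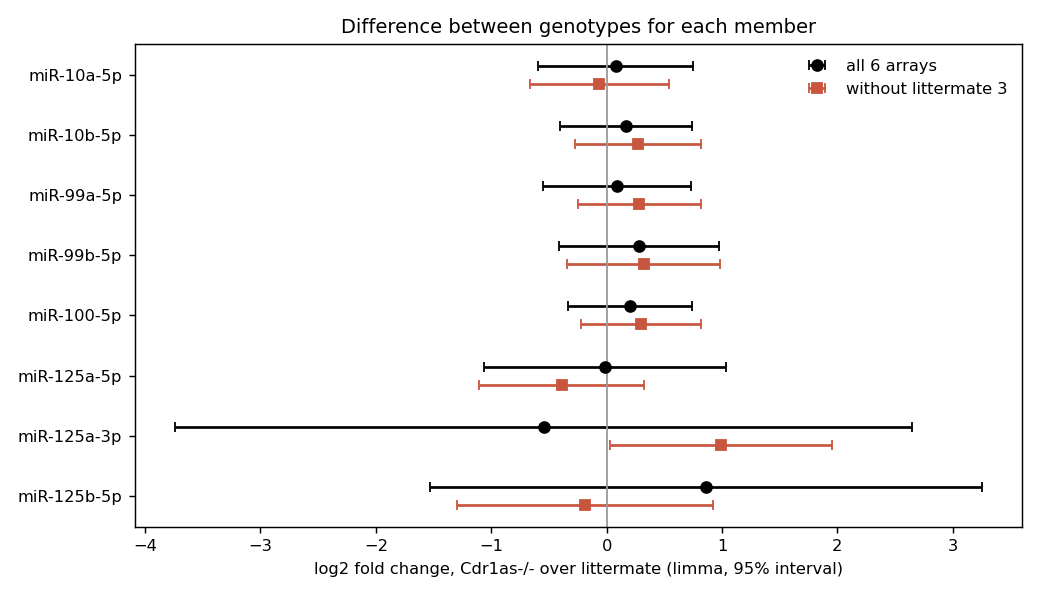
Log2 fold change of each member, Cdr1as-/- over littermate, with the 95% interval of the limma fit; circles use all 6 arrays and squares leave out littermate 3. All 8 intervals from 6 arrays cover 0, and without littermate 3 only the interval of miR-125a-3p, 0.03 to 1.96, does not.

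The miR-125 guide strands varied more between mice than the miR-10 and miR-99/100 members did. miR-125a-5p stood at 5.36, 5.40 and 4.27 in the littermates and at 5.09, 5.45 and 4.43 in the Cdr1as-/- mice. Littermate 3 and Cdr1as-/- mouse 3 were about 1 log2 unit below littermates 1 and 2, and the groups overlapped. Its 5 probes did not all agree. In littermate 3, probe 4 was 0.29 above the mean of littermates 1 and 2, and the others were 0.71 to 1.72 below it. In Cdr1as-/- mouse 2 only 3 of the 5 were well above background. Between genotypes, the log2 fold change was −0.02 (SE 0.43, 95% interval −1.07 to 1.03), and −0.39 (95% interval −1.10 to 0.33, limma adjusted p = 0.49) without littermate 3.

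miR-125b-5p stood at 8.06, 7.96 and 4.87 in the littermates and at 8.13, 8.65 and 6.69 in the Cdr1as-/- mice. The same mice, littermate 3 and Cdr1as-/- mouse 3, were low, by 3.14 and 1.32 from the mean of littermates 1 and 2, while Cdr1as-/- mouse 2 was the highest. The log2 fold change was 0.86 (SE 0.99, 95% interval −1.53 to 3.25) with all 6 arrays and turned to −0.19 (95% interval −1.30 to 0.92, limma adjusted p = 0.84) without littermate 3. All 5 of its probes gave the same order between littermate 3 and littermates 1 and 2.

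The mean of the smooth muscle and mesenchyme markers was low and high in the same mice as miR-125b-5p. Their 8 listed miRNAs had a mean log2 level of 6.99, 7.07 and 4.46 in littermates 1 to 3 and of 7.13, 7.63 and 6.03 in Cdr1as-/- mice 1 to 3, so that littermate 3 and Cdr1as-/- mouse 3 were again the lowest and Cdr1as-/- mouse 2 the highest. miR-143-3p, a miRNA of smooth muscle and fibroblasts, stood at 10.58, 10.49 and 5.76 in the littermates and at 12.06, 11.55 and 9.33 in the Cdr1as-/- mice. The list was not uniform, as miR-199a-3p, a fibroblast miRNA, stood at 7.58, 7.94 and 4.48 in the littermates and at 6.57, 8.14 and 6.198 in the Cdr1as-/- mice, low also in Cdr1as-/- mouse 1, where miR-125b-5p was not. 7 of the 8 were lower in littermate 3 than in littermates 1 and 2, beside 556 of all 1831 miRNAs. None of the 8 was at the lowest value of an array. Of the 2 endothelial markers, miR-126a-3p had the same lowest and highest mice. miR-126a-5p shared only the highest, as its lowest mouse was Cdr1as-/- mouse 3 at 4.41. Littermate 3, at 5.09, was above littermates 1 and 2 for it. Averaged over both endothelial markers, littermates 1 to 3 stood at 6.82, 7.13 and 5.61, and Cdr1as-/- mice 1 to 3 at 6.58, 7.33 and 5.97. The part of these cells in the miR-125b-5p values was not tested, and in such bulk tissue fewer cells of a type and less RNA per cell cannot be told apart.

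The marker miRNAs of the epithelium, the labelled tissue's main cell type, had a mean log2 level of 13.40, 13.47 and 10.80 in the littermates and 13.07, 13.36 and 13.38 in the Cdr1as-/- mice. All 8 of 8 were lower in littermate 3 than in littermates 1 and 2, beside 556 of all 1831 miRNAs. The mean on the other 5 arrays lay between 13.07 and 13.47. The list mean of the immune miRNAs ran from 6.29 in littermate 3 to 9.46 in Cdr1as-/- mouse 2. These were the same lowest and highest mice as for miR-125b-5p. Unlike for miR-125b-5p, Cdr1as-/- mouse 1, at 8.48, was below Cdr1as-/- mouse 3, at 8.58. The list mean of erythroid cells ran from 4.94 in littermate 3 to 6.60 in littermate 1. The neural list was lowest in littermate 3 at 3.55 and Cdr1as-/- mouse 3 at 3.85, and highest in littermate 1 at 4.26. The mean of every marker list was thus lowest in littermate 3, but not every member was. The immune miR-155-5p and the erythroid miR-486a-5p were highest in littermate 3, at 7.575 and 5.77. The neural miR-9-5p, at 4.17 there, was above littermates 1 and 2. The neuronal miR-124-3p was at the lowest value of the array in Cdr1as-/- mouse 2, and was at most 3.54 elsewhere. None of the marker miRNAs had an adjusted p under 0.05 with or without littermate 3.

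miR-125a-3p, the 3p strand of the miR-125a hairpin, had the widest range of the 8 members over all 6 arrays, and in littermate 3 and Cdr1as-/- mice 1 and 3 it was above the mean of littermates 1 and 2 where the 5p strand was below it. It stood at 7.94, 8.45 and 12.81 in the littermates and at 9.79, 8.28 and 9.50 in the Cdr1as-/- mice. Littermate 3 was 4.62 above the mean of littermates 1 and 2, and Cdr1as-/- mice 1 and 3 were above both. The log2 fold change was −0.55 (SE 1.31, 95% interval −3.74 to 2.64) with all 6 arrays. It was 0.99 (SE 0.43, 95% interval 0.03 to 1.96, limma adjusted p = 0.36) without littermate 3, where the groups still overlapped because Cdr1as-/- mouse 2 lay between littermates 1 and 2.

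Of the 5 probes of miR-125a-3p, all 5 were brighter in littermate 3 than in littermates 1 and 2, by 4.44 to 5.21. Probe 4 differed from the rest in littermate 2, where it read 10.09, and in Cdr1as-/- mouse 3, where it read 11.42. Without probe 4, singled out after its values were seen, littermates 1 to 3 had 7.65, 7.36 and 12.38 and Cdr1as-/- mice 1 to 3 had 9.26, 7.91 and 7.77, so that littermate 2 and Cdr1as-/- mouse 3 both came down. The mean difference without littermate 3 was then 0.81, and with littermate 3 it was −0.81. In the former comparison the 3 Cdr1as-/- mice were above littermates 1 and 2, as 20.3% of all miRNAs were.

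For miR-10a-5p, probe 4 again followed another course than the other 4. It read 8.31, 8.60 and 7.06 in the littermates and 8.01, 8.87 and 7.67 in the Cdr1as-/- mice, so littermate 3 and Cdr1as-/- mouse 3 were low on it, as they were for the miR-125 guide strands. Without probe 4, likewise singled out after its values were seen, miR-10a-5p ranged only over 0.33 log2 units across the 6 mice, from 7.07 to 7.39, against 0.71 with it. The 5 probes of miR-10b-5p and of miR-100-5p were all above littermates 1 and 2 in littermate 3, as were those of miR-99a-5p. The 5 probes of miR-10b-5p, miR-99a-5p, miR-99b-5p and miR-100-5p were all higher on average in Cdr1as-/- mice, with and without littermate 3. For miR-99b-5p, 3 of the 5 were at the lowest value of the array in littermate 1. Probes of 1 miRNA share their arrays, and how many of all miRNAs had every probe higher was not counted.

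**Figure D3:**
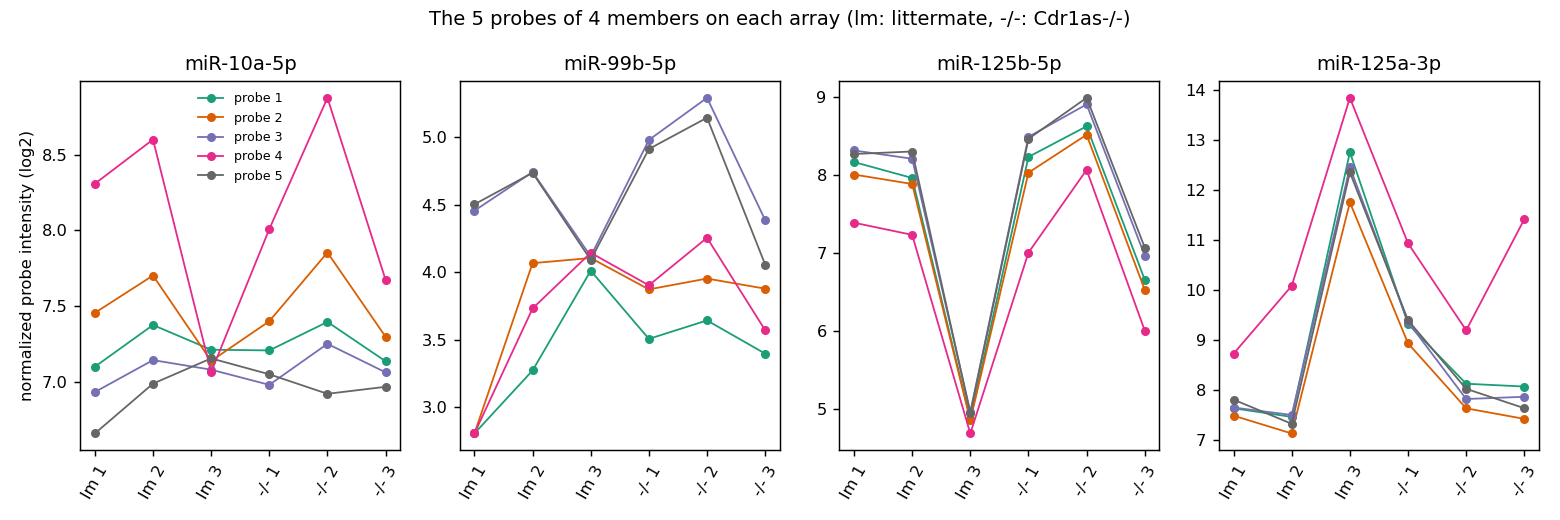
Normalized log2 intensity of each of the 5 probes of miR-10a-5p, miR-99b-5p, miR-125b-5p and miR-125a-3p on the 6 arrays, littermates (lm) first and Cdr1as-/- mice (-/-) after; vertical scales differ between panels. The probes of miR-125b-5p run in parallel, whereas probe 4 of miR-10a-5p falls to 7.06 in littermate 3 and probe 4 of miR-125a-3p rises to 11.42 in Cdr1as-/- mouse 3.

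The members differed in how far they ranged over the 6 arrays. miR-100-5p had a range of 0.46, smaller than all but 6.23% of the miRNAs in the table, miR-10b-5p 0.52, miR-10a-5p 0.71, miR-99a-5p 0.72 and miR-99b-5p 0.89, where the median miRNA had 1.07. miR-125a-5p was near that median at 1.18. miR-125b-5p with 3.78 and miR-125a-3p with 4.87 had larger ranges than 92.7% and 98.0% of the miRNAs. On the array of littermate 3 itself, 5 of the 8 members, those of the miR-10 and miR-99/100 families, differed by less than 1 log2 unit from the mean of littermates 1 and 2, as did 58.3% of all miRNAs. 4 of 8 members were above both littermates there, beside 60.2% of the table, and among the 7 5p strands it was 3, beside 62.4% of all 5p strands. Without littermate 3, miR-125b-5p and miR-125a-3p still ranged over 1.96 and 1.85, larger than 96.6% and 95.4%. miR-125a-5p and miR-99b-5p, with 1.02 and 0.89, were then also above the median of 0.79, and the other 4 members below it, from 0.46 to 0.59.

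The opposite strands of the same hairpins were higher in littermate 3 throughout. All 7 of 7 listed 3p strands besides miR-125a-3p were above littermates 1 and 2 on that array, by a median of 3.85, while 55.5% of all 3p strands in the table were. In each of the 6 hairpins named for both strands, those of miR-10a, miR-10b, miR-99a, miR-99b, miR-100 and miR-125a, the 3p strand moved further upward than the 5p strand, which 42.9% of the hairpins in the table did. The largest shift of the 7 was that of miR-125b-1-3p, the 3p strand of the Mir125b-1 hairpin. It stood at 7.49, 6.69 and 13.35 in the littermates and at 9.70, 7.77 and 7.66 in the Cdr1as-/- mice. On the same array miR-125b-5p fell by 3.14 on the log2 scale, so the 3p and 5p strands of miR-125b moved in opposite directions. These partners are printed because they carry the contrast, again with the seed in capitals.
mmu-miR-125b-1-3p: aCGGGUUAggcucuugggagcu
mmu-miR-125b-2-3p: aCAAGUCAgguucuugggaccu

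miR-125b-2-3p, from the other miR-125b gene, stood at 5.59, 4.51 and 10.14 in the littermates and at 7.58, 5.63 and 5.83 in the Cdr1as-/- mice. miR-99a-3p stood at 3.60, 3.49 and 7.39 against 5.55, 4.07 and 3.97, and miR-99b-3p at 4.42, 3.98 and 8.10 against 6.06, 4.77 and 4.83. In all 4 of these 3p strands littermate 3 was the highest mouse and Cdr1as-/- mouse 1 the next. The same mice had the brightest arrays, as given above, and the part of array brightness in these values was not tested.

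The other 3 of the 7, among them both Hox-embedded strands, had smaller shifts. miR-10a-3p stood at 4.87, 4.91 and 6.03 in the littermates and at 5.16, 4.96 and 4.45 in the Cdr1as-/- mice, and miR-10b-3p at 4.27, 4.33 and 5.72 against 4.85, 4.55 and 4.14. miR-100-3p ranged from 3.08 to 3.87. Between genotypes the direction of these strands rested on littermate 3. All 7 of 7 were lower on average in Cdr1as-/- mice with all 6 arrays, with a median log2 fold change of −0.30, and 6 of 7 were higher without littermate 3, with a median of 0.99. None had an adjusted p under 0.05 either way. The smallest limma adjusted p, 0.35 without littermate 3, was that of miR-99b-3p, whose log2 fold change was −0.28 with all arrays and 1.02 without it. In the latter comparison miR-99a-3p, miR-99b-3p, miR-125b-1-3p and miR-125b-2-3p had all Cdr1as-/- mice above the littermates, as 20.3% of all miRNAs did.

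The let-7 miRNAs encoded between the miR-99/100 and miR-125 genes went down in littermate 3. All 6 of 6 in the table were lower there than in littermates 1 and 2, by a median of 3.04, beside 556 of all 1831 miRNAs. let-7a-2-3p was lower by only 0.34, and let-7c-2-3p was not analysed here. let-7e-5p, from the gene between Mir99b and Mir125a, stood at 10.41, 10.33 and 6.08 in the littermates and at 9.48, 10.51 and 9.75 in the Cdr1as-/- mice. let-7c-5p fell by 3.53 and let-7a-5p fell by 3.27 on that array, though both come from further genes as well.

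Across genotypes, let-7e-3p, let-7c-1-3p and let-7a-2-3p, the 3p strands of the 3 let-7 genes, were lower in the 3 Cdr1as-/- mice than in littermates 1 and 2, as were 19.9% of all miRNAs. Against littermates 1 and 2, let-7e-3p fell by 0.998 and let-7c-1-3p fell by 1.11 on the log2 scale, each with a limma adjusted p of 0.25, and let-7a-2-3p fell by 0.40 with an adjusted p of 0.41. In Cdr1as-/- mouse 3, let-7a-2-3p was at 2.70, the lowest value of that array, so the size of its fall is uncertain. With all 6 arrays the 3 log2 fold changes were −0.15, −0.18 and −0.29. The 3 let-7 5p strands had log2 fold changes of 0.92 to 0.98 with all arrays and of −0.46 to −0.17 without littermate 3, and none passed the test.

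**Figure D4:**
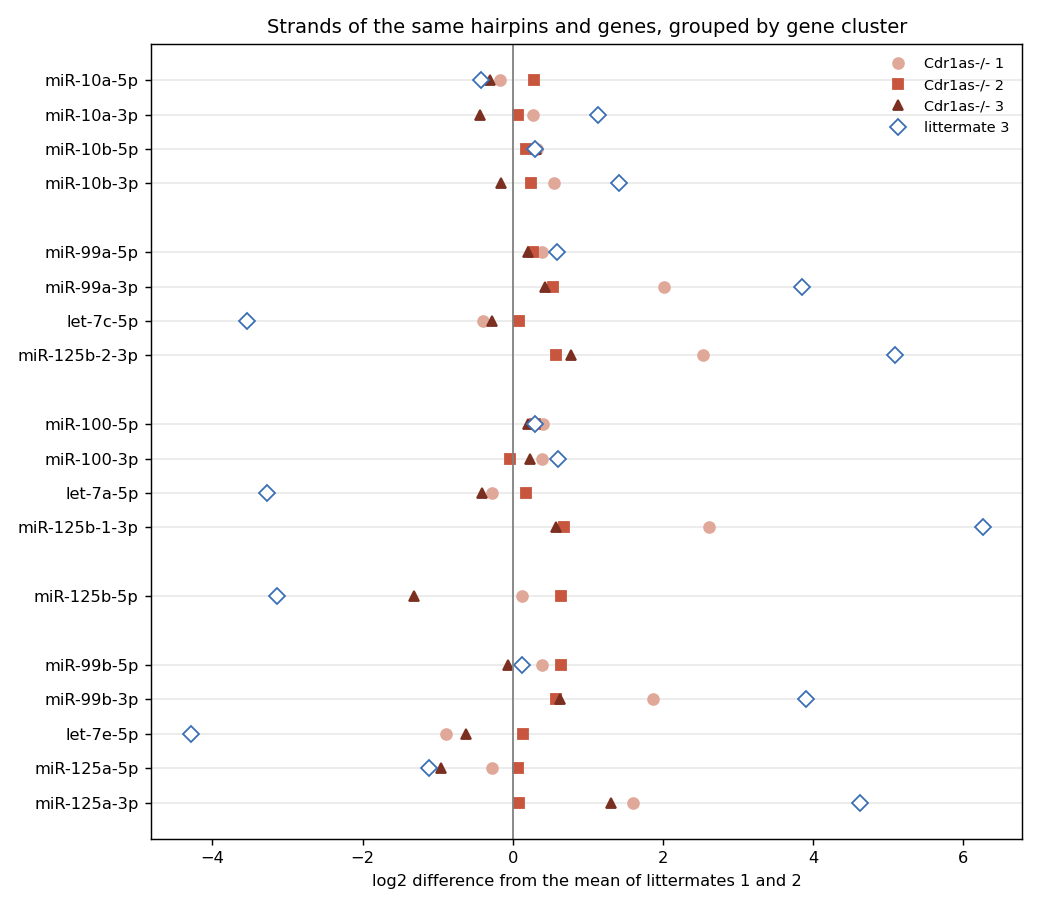
Difference of each mouse from the mean of littermates 1 and 2, on the log2 scale, for the members, their opposite strands and the let-7 5p miRNAs, grouped by gene cluster; miR-125b-5p stands alone because it comes from 2 clusters. In littermate 3 (open diamonds) the 3p strands lie to the right, up to 6.26 for miR-125b-1-3p, the let-7 miRNAs to the left, down to −4.29 for let-7e-5p, and the 5p strands of the miR-10 and miR-99/100 families near 0.

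Within-mouse log2 ratios of members, in which a factor common to all miRNAs of an array drops out, were compared for 8 pairs. A normalization that depends on the level would not drop out, and the method behind the deposited values is not known. No pair passed, between genotypes, a two-sided exact permutation test over mice, for which the smallest possible p with 3 mice per group was 0.1. The lowest p was 0.3, or 0.93 after Benjamini-Hochberg adjustment over the 8 pairs, for miR-125a-5p over miR-125b-5p, whose log2 ratio differed by −0.88 on average in Cdr1as-/- mice, and by −0.20 (exact permutation p = 0.6) without littermate 3. Without littermate 3 the lowest p was 0.2, or 0.91 adjusted, which was also the smallest possible.

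The steadiest pair was miR-99a-5p with miR-100-5p, paralogs from different chromosomes that differ by 1 base. How far the probes separated these paralogs was not tested. Littermates 1 to 3 had log2 ratios of 0.07, 0.23 and 0.44, and Cdr1as-/- mice 1 to 3 of 0.13, 0.12 and 0.15. The Cdr1as-/- values lay inside the littermate values, and the difference was −0.11 (exact permutation p = 0.4), or −0.016 without littermate 3.

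For miR-10a-5p over miR-10b-5p the log2 ratio in littermates 1 to 3 was 0.79, 0.69 and 0.02, and in Cdr1as-/- mice 1 to 3 it was 0.25, 0.85 and 0.13. Both groups held high and low mice, and the difference was −0.09 (exact permutation p = 1.0), or −0.33 without littermate 3. Its sign rested on the setting, since it was 0.11 from the scanner signal scaled to its 75th percentile.

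The ratio of members encoded together varied from mouse to mouse. miR-99a-5p over miR-125b-5p, which share the cluster on chromosome 16, had log2 ratios of −1.43, −1.07 and 2.48 in the littermates and −0.99, −1.62 and 0.27 in the Cdr1as-/- mice. miR-100-5p over miR-125b-5p, which share that on chromosome 9, had −1.50, −1.29 and 2.04 against −1.11, −1.74 and 0.12. For both ratios littermate 3 and Cdr1as-/- mouse 3 were the highest mice, and the exact permutation p between genotypes was 0.7. The differences, −0.77 and −0.66 with all arrays, turned to 0.47 and 0.49 without littermate 3.

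miR-99b-5p over miR-125a-5p, from the closest of the 3 clusters, had log2 ratios of −1.64, −1.18 and −0.17 in the littermates and −0.73, −0.84 and −0.525 in the Cdr1as-/- mice. Without littermate 3 the 3 Cdr1as-/- mice were above both littermates, by 0.71 (exact permutation p = 0.2, the smallest possible). Of single miRNAs, 20.3% had all Cdr1as-/- mice above the littermates in that comparison. miR-99b-5p carried the dim probes described above, in littermate 1 among others. The strands of the miR-125a hairpin, 5p over 3p, had the widest spread of all pairs, with log2 ratios of −2.58, −3.05 and −8.55 in the littermates and −4.69, −2.83 and −5.07 in the Cdr1as-/- mice. Their difference was 0.53, and −1.38 without littermate 3 (exact permutation p = 0.9 and 0.4).

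**Figure D5:**
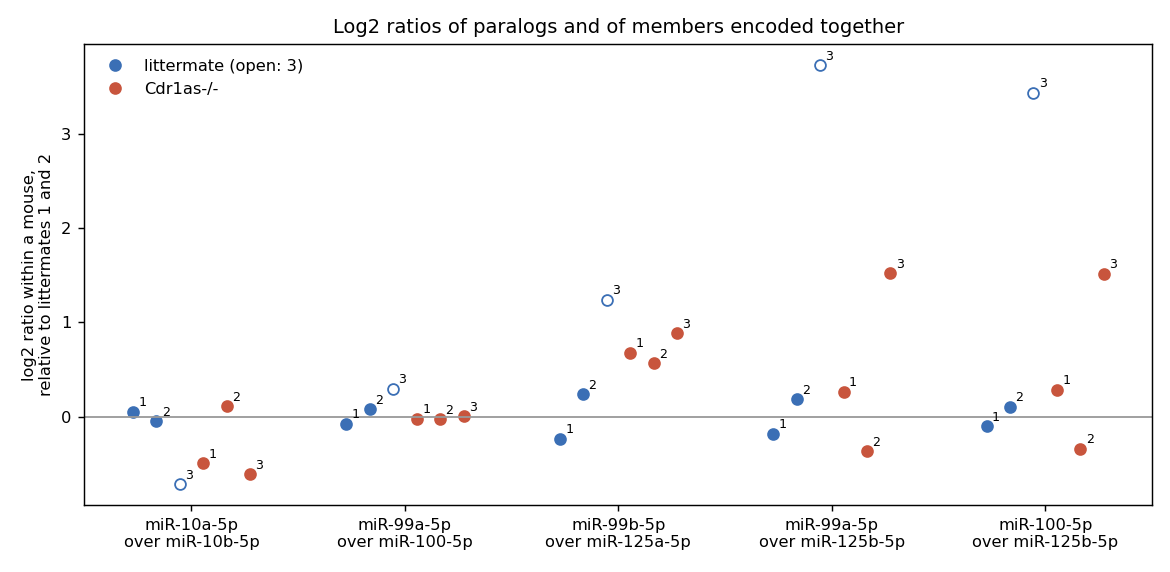
Log2 ratio of 2 members within each mouse, for 5 of the pairs, each set to 0 at the mean of littermates 1 and 2; littermates are blue with littermate 3 open, Cdr1as-/- mice are red, and the small numbers are the replicates. The ratios of miR-99a-5p and miR-100-5p to miR-125b-5p are highest in littermate 3, by 3.73 and 3.44, and next in Cdr1as-/- mouse 3, while miR-99a-5p over miR-100-5p stays within 0.37 over all 6 mice.

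The Hox-embedded pair was then set against the clustered families. Littermates 1 to 3 had a mean log2 level of the miR-10 pair of 7.02, 7.34 and 7.12, and Cdr1as-/- mice 1 to 3 of 7.26, 7.41 and 7.19, a difference of 0.12. That of the 3 miR-99/100 members differed by 0.19 and that of miR-125a-5p and miR-125b-5p by 0.42, or by 0.10, 0.30 and −0.29 for the 3 families without littermate 3. These means over members are descriptions and carry no test.

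The miR-10 pair minus the 5 guide strands of the clusters gave 0.95, 1.12 and 1.62 for littermates 1 to 3 and 0.91, 0.88 and 1.43 for Cdr1as-/- mice 1 to 3. Littermate 3 and Cdr1as-/- mouse 3, in which miR-125b-5p was low, were the highest of their groups. The difference between genotypes was −0.16, smaller than the SD within either group, 0.35 in littermates and 0.31 in Cdr1as-/- mice, and it was 0.04 without littermate 3. Against the miR-99/100 members alone, the miR-10 pair stood at 1.38, 1.42 and 1.0 in the littermates and at 1.08, 1.23 and 1.29 in the Cdr1as-/- mice. The groups overlapped, with a difference of −0.065 and a range of 0.41 over the 6 mice. Without littermate 3 the difference was −0.20, and the 3 Cdr1as-/- mice lay below both littermates, as 19.9% of single miRNAs did. Against each other the miR-99/100 and miR-125 guide strands ranged over 2.63, with a difference of −0.23 that turned to 0.59 without littermate 3.

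The other miRNAs of the Hox clusters, the miR-196 and miR-615 families, were read for comparison. None of the 7 had an adjusted p under 0.05. On the array of littermate 1, miR-196a-1-3p, miR-196a-2-3p, miR-196b-3p and miR-615-5p were at its lowest value, 2.80. miR-196a-5p stood at 6.94, 7.03 and 8.14 in the littermates and at 7.77, 6.97 and 7.51 in the Cdr1as-/- mice, and miR-196b-5p at 6.99, 6.99 and 7.94 against 7.70, 7.05 and 7.44. Littermate 3 was the highest mouse for both, and the log2 fold changes were 0.05 and 0.09. Without littermate 3 they were 0.44 and 0.41 (limma adjusted p = 0.42 for each). For miR-196b-5p all Cdr1as-/- mice then lay above the littermates, as 20.3% of all miRNAs did.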

How the data were processed

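Total RNA was dephosphorylated, labelled with Cy3 and hybridized to 1 array per mouse, per the labels. Scanner intensities, from which Agilent Feature Extraction 11.0.1.1 had subtracted background, were deposited unnormalized. The authors also deposited normalized log2 values of 10690 probes and 1831 miRNAs, by a method not given in the sources used here. Each miRNA value was the log2 of the mean unlogged value of 1 to 5 probes (8437 probes, within 1e-06). Columns of the authors' comparison, with means, fold changes and p-values, were not used.

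Samples were grouped by genotype label, and all sample columns were assigned. The main fit was limma 3.58.1 in R 4.3.3 (lmFit, eBayes, no covariate) on all miRNAs and 6 arrays. Benjamini-Hochberg adjustment was used, with a threshold of 0.05. The fit was also tried on simulated data, which cannot show that it suits the real arrays, as these include the array that stood apart. Ratios were compared by exact permutation tests in SciPy 1.17.1. P-values set a difference against the spread between these mice, and with 1 array per mouse that spread includes differences between arrays. The number of mice limits the precision. Replicate numbers were not taken to pair the mice in the main fit.

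Alternatives were scanner signals scaled by the 75th percentile, over detected or all probes, or by quantiles, normexp correction with an offset of 50, the brightest probe, a filter on dim probes, the methods' t-test, a trend, array weights, slide and replicate blocks, and each array left out. The members and lists were chosen with earlier results of these data known. The named miRNAs were the members, the other products of their hairpins and genes, the Hox miRNAs, the marker lists, and the 3 most alike in profile to each family.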

Additional observations from a re-analysis of the deposited data

How the results depend on the processing

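No miRNA had an adjusted p under 0.05 under any of the 19 alternatives, and over the 8 members the lowest was 0.14. Of 152 values of a member under an alternative, 123 kept their sign and 29 turned. Those that kept it include the settings that could not change a log2 fold change: the dim-probe filter, the t-test, the trend and the replicate block. Values that turned, on the log2 scale, were as follows; the causes were not tested. With the scanner signal at its 75th percentile over detected probes, miR-125a-5p was 0.025 and miR-125a-3p 0.29, over all probes 0.13 and 0.39, and with quantiles miR-125a-5p was 0.092. Normexp gave −0.023 for miR-99a-5p, 0.29 for miR-125a-5p and 0.25 for miR-125a-3p, and the brightest probe gave 0.093 for miR-125a-5p. Array weights, which gave littermate 3 a weight of 0.08, gave −0.21 for miR-10a-5p, 1.09 for miR-125a-3p and −0.69 for miR-125b-5p. The slide as a block, which leaves Cdr1as-/- mouse 1 against the littermates, gave −0.031 for miR-10a-5p, 0.087 for miR-125a-5p and 0.055 for miR-125a-3p. In combinations chosen after seeing the data, without littermate 3 the 75th percentile gave −0.14, 0.89 and −0.0095 and the methods' t-test −0.062, 0.99 and −0.19 for miR-10a-5p, miR-125a-3p and miR-125b-5p.

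Leaving out each array in turn, the log2 fold change ran from −0.10 to 0.22 for miR-10a-5p, from 0.026 to 0.27 for miR-10b-5p, from 0.12 to 0.47 for miR-99b-5p, from 0.13 to 0.30 for miR-100-5p, from −0.076 to 0.28 for miR-99a-5p, from −0.39 to 0.26 for miR-125a-5p, from −1.44 to 0.99 for miR-125a-3p and from −0.19 to 1.43 for miR-125b-5p. The miR-10 pair minus the 5 guide strands ran from −0.34 to 0.038, turning without littermate 3. Ratio differences ran from −0.33 to 0.054 for miR-10a-5p over miR-10b-5p, from −0.027 to 0.71 for miR-99b-5p over miR-125a-5p, from −1.49 to 0.47 for miR-99a-5p over miR-125b-5p, from −1.28 to 0.49 for miR-100-5p over miR-125b-5p and from −1.38 to 1.60 for the miR-125a strands. The first of these also turned to 0.11 with either 75th percentile and with normexp, and to 0.16 with quantiles and with the brightest probe, the miR-125a strands turned to −0.26 with either 75th percentile, and normexp gave −0.019 for miR-99b-5p over miR-125a-5p.

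At an unadjusted p under 0.05, 6 of 1831 miRNAs were counted with all arrays, 1 with the 75th percentile over detected probes, 0 with normexp, 21 by the methods' t-test, 510 with array weights, from 1 to 242 with an array left out, 242 being without littermate 3, where the 75th percentile gave 195 and the t-test 174. The median log2 fold change of all miRNAs was −0.07, and −0.19 with the 75th percentile over detected probes. Deviations of same-numbered mice from their group means correlated at −0.76, 0.56 and −0.22. Littermate 3 shapes the deviations of all littermates, and littermates 1 and 2 gave −0.76 and −0.81 with Cdr1as-/- mouse 1. These values therefore cannot show whether the numbers pair mice. With the replicate block the count of unadjusted calls was 3. With equal groups this block leaves every log2 fold change as it was, that of miR-125b-5p at 0.86. On the second slide there were Cdr1as-/- mice 2 and 3 only. Dim probes limit miR-99b-5p most.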

Other observations

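The miRNAs most alike to each family in course over the 6 arrays were found by the root mean square difference of levels centred over arrays, among 1018 miRNAs that had a probe well above background on every array. They were miR-139-5p (0.05 log2 units), miR-501-3p (0.09) and miR-133a-3p (0.10) for the miR-10 pair, and miR-1947-5p (0.05), miR-465b-5p (0.05) and miR-7071-5p (0.06) for miR-99/100. For the miR-125 guide strands they were miR-218-5p (0.29), miR-193a-3p (0.29) and miR-21a-5p (0.31), where the median of the compared miRNAs was 1.04. Without littermate 3, miR-139-5p stayed among the 3 nearest to the miR-10 pair and miR-218-5p among the 3 nearest to the miR-125 guide strands, while none of the 3 nearest to miR-99/100 was the same. These are descriptions over at most 6 points that share their arrays.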
